A study of Homo sapiens with 2 samples.

Results

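Short-arm band 1p36 of chromosome 1 holds 7 genes of the tumor necrosis factor (TNF) receptor superfamily, TNFRSF4, TNFRSF18, TNFRSF14, TNFRSF25, TNFRSF9, TNFRSF8 and TNFRSF1B. Each gene was taken from 1500 bp upstream of its most upstream annotated transcript start to the gene end in GENCODE release 44 lifted to hg19, and a site entered where each library had 5 or more reads on that CpG cytosine. This gave 1022 of the 3168726 shared sites, in 6 of the 7 genes. TNFRSF14 held 0 shared sites, so its methylation is not analysed here. The group was chosen because TNFRSF4 and TNFRSF8 were known to be higher and TNFRSF18 lower in SKNO-1 in these same libraries, so the differences below describe the libraries and none of them was tested as a finding.

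The data were 2 methylC-capture sequencing (MCC-Seq) libraries, 1 of each cell line. SKNO-1 is an acute myeloid leukemia (AML) line with the t(8;21) translocation and its AML1-ETO fusion, also named RUNX1-RUNX1T1. SKNO1-siAE was made from SKNO-1 by infection with the lentiviral vector pRRLcPPT.hPGK, which encodes siAGF1 oligonucleotides against the fusion site of the AML1-ETO mRNA, so both lines carry the fusion gene and SKNO1-siAE also carries the vector. Both were grown in the same medium with fetal calf serum, and the comparison asks how DNA methylation differs with and without the fusion transcript. Whether SKNO1-siAE is a clone or a pool was not given in the sources used here, and silencing of the transcript cannot be checked from DNA methylation. With 1 library per line there was no replicate, and the effects of the vector, of culture and of silencing cannot be told apart. The deposited sites held 83620068 reads in SKNO-1 and 82164216 in SKNO1-siAE, with a median depth of 16 and 15 reads at the shared sites and a mean level of 0.587 and 0.655.

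Receptors of the TNF family are cell-surface proteins that bind trimeric ligands of the TNF family and pass the signal on through TRAF adaptors or, in the receptors that have one, a death domain. Several of those on 1p36 costimulate T and natural killer cells and are switched on after activation. A methylated CpG-rich stretch at a transcript start is commonly found at silent genes, and an unmethylated one at active or inducible genes. No RNA or protein was measured in these files, so the levels below say nothing of expression. The level of a site is its methylated reads divided by all its reads, and a group of sites is given as the mean ± SD over sites. A read is counted at each CpG it covers, so reads summed over neighbouring sites are not independent, and the intervals of pooled reads given below are narrower than the number of molecules allows. Each difference is SKNO-1 minus SKNO1-siAE.

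Differences at the transcript starts pointed both ways, and TNFRSF8, TNFRSF9 and TNFRSF25 also differed in stretches farther inside the gene. In the first 500 bp of the representative transcript (MANE Select), TNFRSF4 and TNFRSF8 were more methylated in SKNO-1 by 0.687 and 0.601. The TNFRSF8 difference was 0.322 over 16 sites of the plus strand and 0.692 over 49 of the minus strand. TNFRSF18 and TNFRSF25 were less methylated in the same stretch, with differences of -0.928 and -0.908. TNFRSF1B was mostly unmethylated there in both libraries, and TNFRSF9 had no shared site in that stretch. Over all protein-coding genes with at least 5 sites in it (13249 genes), a difference of at least 0.2 was found toward higher levels in SKNO-1 for 3.37% and toward lower levels for 13.1%, with a median of 0. These members were picked from this contrast, so nothing is read from their share.

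**Figure D1:**
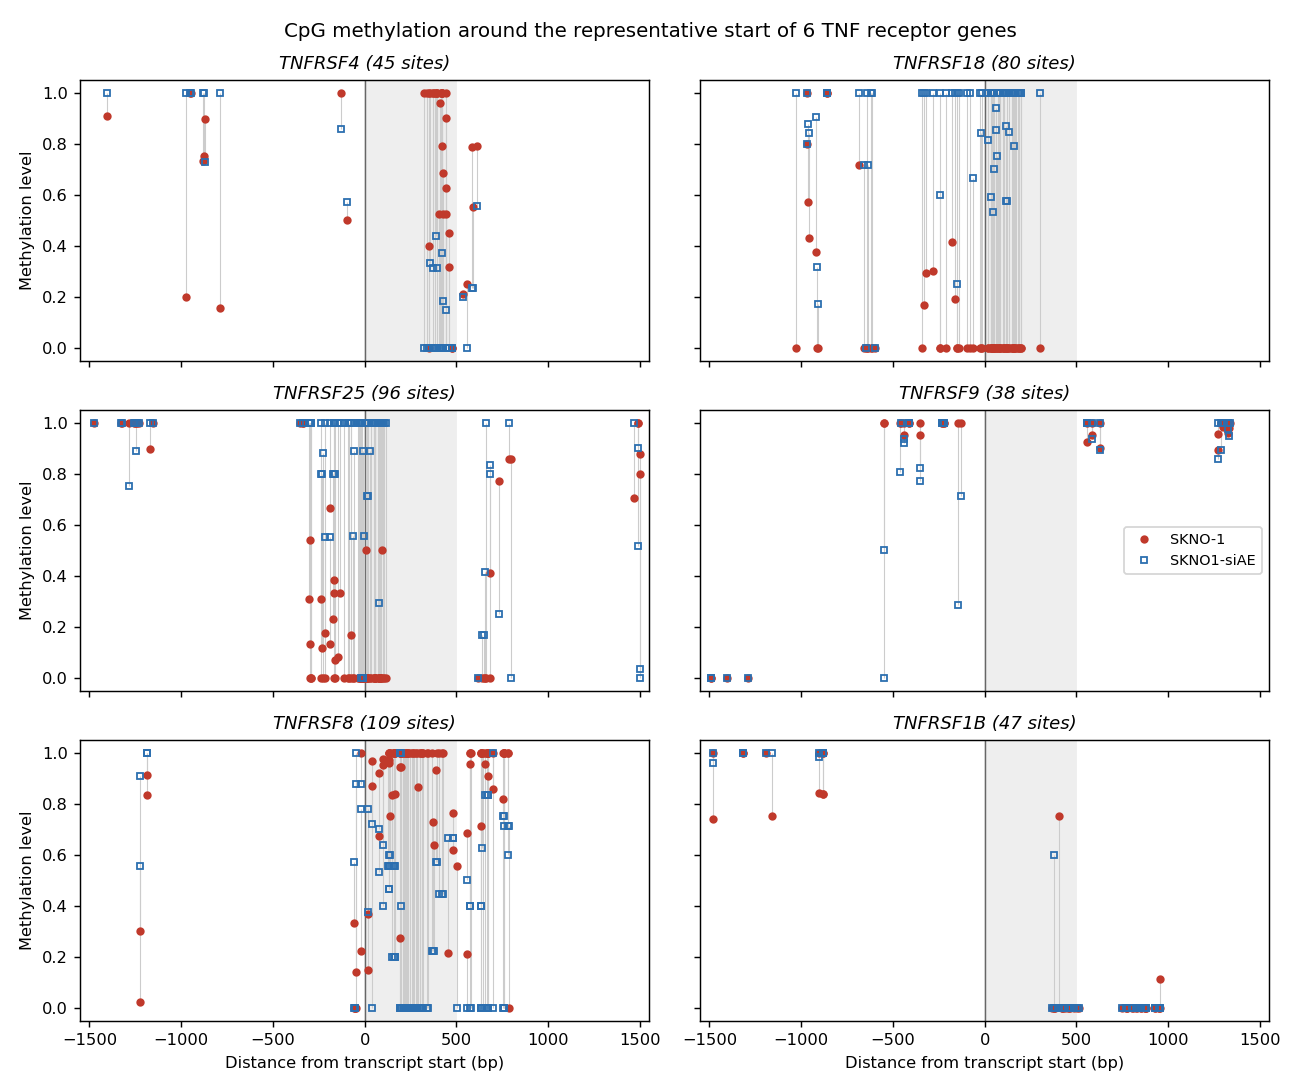
Methylation level of each shared CpG cytosine (y axis, 0 to 1) against distance from the representative transcript start in bp (x axis, negative upstream), for 6 genes. Filled circles are SKNO-1, open squares SKNO1-siAE, grey lines join the same site and the shaded strip is the first 500 bp, where SKNO-1 lies at 0 in TNFRSF18, near the bottom in TNFRSF25, mostly above SKNO1-siAE in TNFRSF4 and TNFRSF8, and level with it in TNFRSF1B.

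Over whole loci the differences were smaller than in the first 500 bp. TNFRSF4 had a difference of 0.361 over 52 sites (0.230 with merged strands), TNFRSF18 of -0.653 over 95, TNFRSF25 of -0.224 over 216, TNFRSF9 of -0.00700 over 102, TNFRSF8 of -0.0194 over 370 and TNFRSF1B of 0.00531 over 187. Of 18812 coding loci, 1.68% were higher and 11.7% lower in SKNO-1 by at least 0.2, with a median of -0.0206. When the reads of each site were compared by Fisher's exact test (2-sided, Benjamini-Hochberg adjustment over all shared sites, difference of at least 0.2), 114 member sites (11.2%) were called higher and 199 (19.5%) lower in SKNO-1. The counts were 17 and 41 by Bonferroni adjustment. They were 74 and 86 of 557 member sites with 10 or more reads, which tests fewer sites. Shares of all shared sites were not computed for these settings. Without these changes, 4.4% of all shared sites were called higher and 11.7% lower. These calls compare 2 libraries, and the members were chosen on the same reads.

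**Figure D2:**
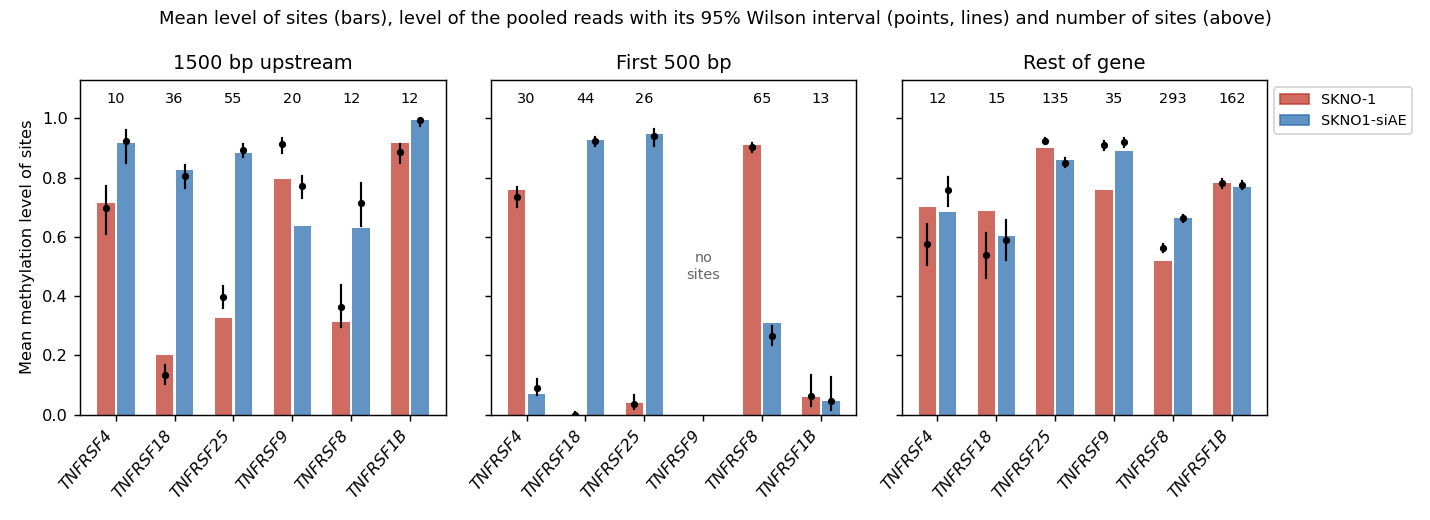
Mean methylation level of the shared sites (bars, y axis from 0) in the 1500 bp upstream of the start, the first 500 bp and the rest of the gene, for 6 genes in SKNO-1 (red) and SKNO1-siAE (blue). Black points and lines are the level of the pooled reads with its 95% Wilson interval and the numerals over the bars are numbers of sites; in TNFRSF4, TNFRSF18, TNFRSF25 and TNFRSF8 the libraries differ more in the first 500 bp than in the other 2 windows, and TNFRSF18 stands there at 0 in SKNO-1 and 0.928 in SKNO1-siAE.

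TNFRSF18 (ENSG00000186891, chromosome 1, 1138888 to 1141972, - strand) encodes GITR, a costimulatory receptor of T cells that is abundant on regulatory T cells. Its first exon (1141765 to 1141972) held 0 methylated reads of 459 in SKNO-1, summed over 43 sites of 6 to 23 reads, and 1032 of 1118 in SKNO1-siAE, a mean level of 0.926 ± 0.139 over 43 sites (95% Wilson interval of the pooled reads 0.906 to 0.937). At the site with 23 reads, a count of 0 allows a share of up to 13% by the limit of 3 counts. No other measured exon of these genes was free of methylated reads in one library and above 0.9 in the other. TNFRSF18 was chosen as lower in SKNO-1, and many exons held no shared site, so nothing is read from this. The sequence of that stretch, from the start of the coding sequence into the intron (chr1:1141671-1141951, hg19, - strand, written 5′ to 3′), is shown because it holds 42 shared sites at 0 in SKNO-1 and a mean of 0.929 in SKNO1-siAE. Capitals mark the CpGs with a shared site, 26 of its 39 CpGs.
TNFRSF18: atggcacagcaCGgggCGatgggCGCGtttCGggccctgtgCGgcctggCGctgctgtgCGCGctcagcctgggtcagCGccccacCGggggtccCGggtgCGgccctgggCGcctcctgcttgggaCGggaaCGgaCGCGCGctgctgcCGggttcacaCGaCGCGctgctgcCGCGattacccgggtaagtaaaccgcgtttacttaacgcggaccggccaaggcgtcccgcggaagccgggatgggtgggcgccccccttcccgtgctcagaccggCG

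The low stretch of TNFRSF18 in SKNO-1 ran past the start. A run is a row of 5 or more sites with gaps of up to 300 bp, along which the difference, smoothed over 5 sites, stayed at or beyond 0.2 in the same direction. The run over the start spanned 857 bp upstream to 300 bp downstream, with levels of 0.0434 in SKNO-1 and 0.896 in SKNO1-siAE over 71 sites. A second run from 1029 to 908 bp upstream held 8 sites at 0.397 and 0.739. The 1500 bp upstream as a whole stood at 0.202 ± 0.327 and 0.825 ± 0.30 over 36 sites. The rest of the gene was close in both, at 0.689 ± 0.440 and 0.604 ± 0.443 over 15 sites, and 4 sites of the last exon were unmethylated in both. The gene had fewer reads in SKNO-1, with a log2 ratio of SKNO-1 to SKNO1-siAE reads, each relative to its library total, of -0.706. The part of this ratio in the difference was not tested.

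TNFRSF4 (ENSG00000186827, 1146706 to 1149533, - strand) encodes OX40, a costimulatory receptor of activated T cells. It lies 4733 bp upstream of the TNFRSF18 start on the same strand and differed in the opposite direction. Its first 500 bp stood at 0.757 ± 0.339 in SKNO-1 and 0.0699 ± 0.137 in SKNO1-siAE over 30 sites, with 493 of 671 and 42 of 468 reads methylated. The 95% Wilson intervals of these pooled shares were 0.700 to 0.767 and 0.0671 to 0.119. These sites lay 250 to 499 bp downstream of the start, mostly in exon 2 (24 sites at 0.763 and 0.0735), and the first exon held no shared site. The run there had levels of 0.811 and 0.0749 over 28 sites, and site levels reached from 0 to 1 in SKNO-1 and from 0 to 0.438 in SKNO1-siAE, so the ranges overlapped.

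Upstream of TNFRSF4 the direction turned. The 10 sites of the 1500 bp upstream stood at 0.715 ± 0.323 in SKNO-1 and 0.916 ± 0.152 in SKNO1-siAE, a difference of -0.201 that was -0.110 with 10 or more reads and -0.123 when each library used its own sites. The 2 sites nearest the start differed by 0.0357. Extending this window to 500 bp downstream gave 0.465, so the sign of a promoter value for TNFRSF4 depends on where the window ends. The last exon was methylated in both (0.829 and 0.995 over 7 sites). The 97 shared sites between the TNFRSF18 and TNFRSF4 genes had levels of 0.349 and 0.639, a difference of -0.290. These include the 36 sites upstream of TNFRSF18, and the other 61 differed by -0.0934.

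TNFRSF9 (ENSG00000049249, 7975931 to 8003225, - strand) encodes CD137, a costimulatory receptor of T and natural killer cells. Most of its sites were alike, and 88 of 102 differed by less than 0.2. A CpG island from 1978 to 1388 bp upstream of the representative start was unmethylated in both libraries, at 0.0165 and 0.000690 over 50 sites. A processed pseudogene on the + strand (8002432 to 8002786) lies within this island. Nearer the start, the 14 sites within 500 bp were methylated in both, at 0.993 ± 0.0175 and 0.875 ± 0.197. The 20 sites of the 1500 bp upstream gave 0.795 and 0.638, a difference of 0.157 that became 0.318 when each library used its own sites. The 1 run of the gene, 9618 to 9812 bp downstream in an intron, held 7 sites at 0.137 and 0.521. On the 3 CpGs of this run with reads on both strands, the difference was -0.639 on the plus strand and -0.0258 on the minus strand.

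TNFRSF25 (ENSG00000215788, 6520846 to 6526235, - strand) encodes DR3, a receptor with a death domain. As at TNFRSF18, the start was nearly free of methylation in SKNO-1. The first exon (6526129 to 6526233) stood at 0.0400 ± 0.138 in SKNO-1 and 0.944 ± 0.158 in SKNO1-siAE over 25 sites, with 8 of 224 and 256 of 273 reads methylated (95% Wilson intervals 0.0182 to 0.0689 and 0.903 to 0.961). The run over the start spanned 336 bp upstream to 116 bp downstream, with levels of 0.0880 and 0.889 over 68 sites. The sequence upstream of the start (chr1:6526236-6526535, hg19, - strand) is shown because its 41 shared sites had levels of 0.0972 and 0.850. Capitals mark the 27 of its 29 CpGs with a shared site.
TNFRSF25: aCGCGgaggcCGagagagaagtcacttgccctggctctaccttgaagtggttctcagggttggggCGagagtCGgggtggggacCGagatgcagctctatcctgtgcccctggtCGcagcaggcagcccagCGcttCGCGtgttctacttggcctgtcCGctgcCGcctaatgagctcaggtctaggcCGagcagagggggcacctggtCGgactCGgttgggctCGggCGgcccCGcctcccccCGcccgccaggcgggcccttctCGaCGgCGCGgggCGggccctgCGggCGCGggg

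The difference of TNFRSF25 ended within the upstream window. Sites from 1500 to 1251 bp upstream, which lie within the gene PLEKHG5, were methylated in both libraries, at 1 and 0.958. Those from 250 to 1 bp upstream stood at 0.0859 and 0.825. A run of 5 sites in exon 2 was also lower in SKNO-1 (0.0818 and 0.643), and a run of 5 sites in exon 4 was higher (0.906 and 0.440). The last exon, which overlaps the end of the opposite-strand gene ESPN, was methylated in both, at 0.961 and 0.950 over 85 sites. The locus difference of -0.224 shrank to -0.0823 at sites with 10 or more reads in each library and to -0.101 over pooled reads.

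TNFRSF8 (ENSG00000120949, 12123360 to 12204264, + strand) encodes CD30, known as a marker of Hodgkin and anaplastic large-cell lymphoma cells. Its locus mean hid differences of both signs, with 65 sites called higher and 63 lower in SKNO-1 of 370. At the start, exon 1 (12123360 to 12123718) stood at 0.930 ± 0.177 in SKNO-1 and 0.276 ± 0.320 in SKNO1-siAE over 54 sites, with 996 of 1085 and 157 of 644 reads methylated (95% Wilson intervals 0.90 to 0.933 and 0.212 to 0.278). The run over exon 1 covered 39 to 429 bp with levels of 0.951 and 0.287 over 59 sites, and a further run in the first intron, from 558 to 781 bp, had 0.937 and 0.353 over 30 sites. Just upstream, 6 sites from 52 to 20 bp before the start went the other way, at 0.228 and 0.588. The 12 sites of the 1500 bp upstream stood at 0.314 ± 0.383 and 0.630 ± 0.408, a difference of -0.316, which became 0.458 when the window was extended to 500 bp downstream.

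**Figure D3:**
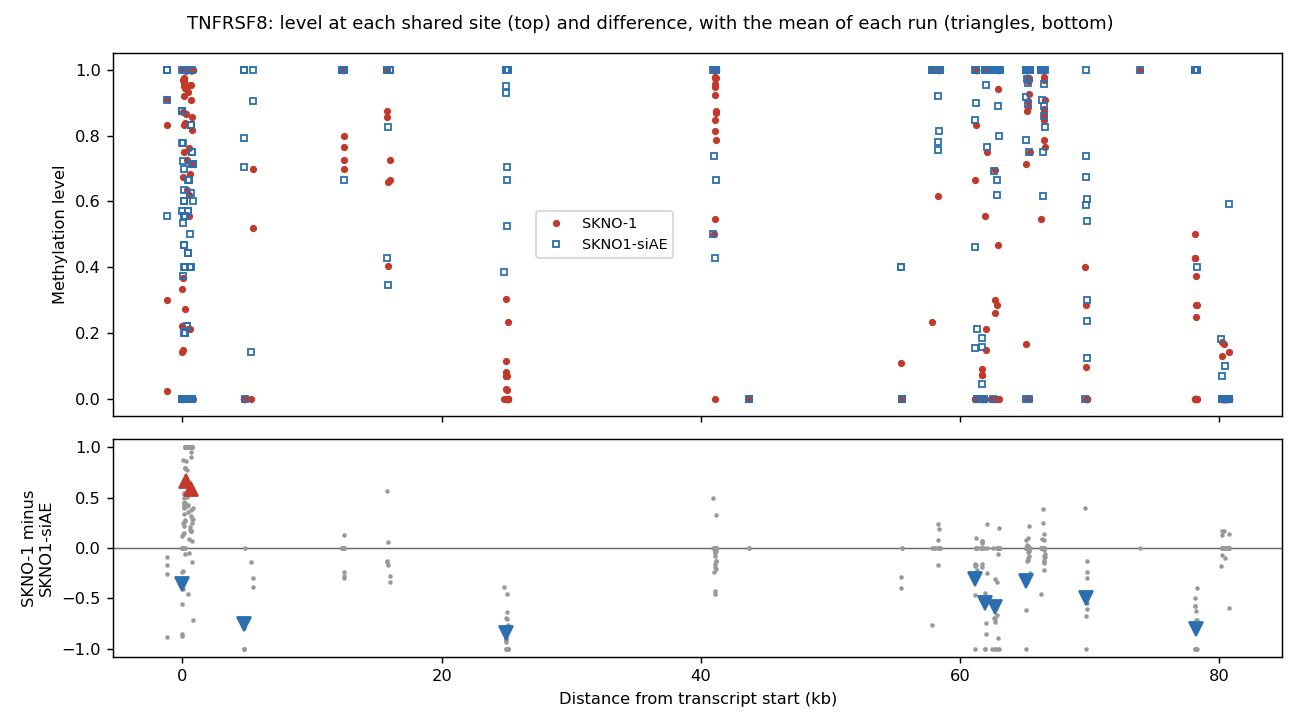
TNFRSF8 along its length: the upper panel plots the methylation level of each shared site in SKNO-1 (filled circles) and SKNO1-siAE (open squares), the lower panel the difference of each site (grey dots), both against distance from the transcript start in kb. Triangles are the means of the 11 runs, pointing up for the 2 that were higher in SKNO-1, both at the start, and down for the 9 that were lower, spread over the gene.

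Farther into TNFRSF8, 8 intragenic runs were lower in SKNO-1. The run from 24842 to 25144 bp in the second intron had levels of 0.0558 in SKNO-1 and 0.898 in SKNO1-siAE over 18 sites. Its sites reached at most 0.303 in SKNO-1 and at least 0.385 in SKNO1-siAE, so the site ranges did not overlap. The share of such runs over the genome is not given, so nothing is read from this. Another run from 78140 to 78294 bp held 16 sites at 0.160 and 0.962. At the start of the shorter transcript TNFRSF8-202, 62596 bp downstream, the 23 sites within 500 bp stood at 0.465 ± 0.448 and 0.899 ± 0.230, opposite to the start of the long transcript. Other stretches did not differ this way. The 22 sites of exon 4 were methylated in both (0.886 and 0.959), and the 38 sites of the last exon were unmethylated in both (0.0162 and 0.0248).

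The 2 intronic stretches of TNFRSF8 below are shown because they differed in opposite directions within the same gene. The stretch in the first intron (chr1:12123917-12124142, hg19, + strand) had levels of 0.937 in SKNO-1 and 0.353 in SKNO1-siAE over 30 sites, and the stretch in the second intron (chr1:12148201-12148500, hg19, + strand) had 0.0591 and 0.892 over 17 sites. Capitals mark CpGs with a shared site, all 16 of the former and all 10 of the latter.
TNFRSF8 near the start: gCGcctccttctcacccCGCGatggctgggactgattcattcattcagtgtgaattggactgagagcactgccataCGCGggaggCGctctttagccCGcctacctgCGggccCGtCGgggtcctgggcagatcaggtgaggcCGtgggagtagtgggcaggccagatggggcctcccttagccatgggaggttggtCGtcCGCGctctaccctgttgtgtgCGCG
TNFRSF8 farther in: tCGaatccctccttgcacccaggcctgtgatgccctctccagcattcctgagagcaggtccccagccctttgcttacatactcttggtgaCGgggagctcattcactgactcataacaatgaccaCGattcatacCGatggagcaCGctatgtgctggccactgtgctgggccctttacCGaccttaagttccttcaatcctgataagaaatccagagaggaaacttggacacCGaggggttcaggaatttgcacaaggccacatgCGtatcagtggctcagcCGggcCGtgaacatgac

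The strands of SKNO1-siAE disagreed at the TNFRSF8 start. Over the 14 CpGs of the near stretch with reads on both strands, SKNO1-siAE had 0.662 on the plus strand and 0 on the minus strand, whereas SKNO-1 had 0.931 and 0.934. In the run over exon 1, 15 such CpGs gave 0.585 and 0.333 in SKNO1-siAE and 0.944 and 0.912 in SKNO-1. The difference over these 15 CpGs was 0.359 on the plus and 0.579 on the minus strand, with the same sign on both. A cause of the strand gap was not tested.

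TNFRSF1B (ENSG00000028137, 12227048 to 12269285, + strand) encodes TNFR2, the TNF receptor found mainly on blood and endothelial cells. It held none of the runs. Its first exon held no shared site. The 13 sites of the first 500 bp lay 369 to 487 bp downstream on the plus strand, at 5 to 8 reads each, and were mostly unmethylated in both libraries, with 6 of 94 reads methylated in SKNO-1 and 3 of 65 in SKNO1-siAE. The 95% Wilson intervals were 0.0296 to 0.132 and 0.0158 to 0.127, and at 5 to 8 reads a site a small difference was not detectable. The 19 sites of an adjacent island, 751 to 971 bp downstream, were also unmethylated in both, at 0.00607 and 0. Its 25 sites in exon 4 were methylated in both, at 0.992 and 0.988. The 12 sites of the 1500 bp upstream gave 0.917 ± 0.107 and 0.995 ± 0.0121, a difference of -0.0780. This value was 0.319 when each library used its own sites.

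Across the 6 genes there were 18 runs. Of these, 4 runs in 3 genes were higher in SKNO-1 and held 122 sites (11.9% of the member sites), and 14 runs in 4 genes were lower and held 249 sites (24.4%). With 10 or more reads, 3 higher and 8 lower runs were found. Over all shared sites, 3.35% lay in runs higher in SKNO-1 and 12.4% in runs lower. Among the runs of the members, 9 overlapped a CpG island, 3 of them higher and 6 lower. The share of all runs that overlap an island is not given, so nothing is read from this count. In 13 of the 18 runs (72.2%) the library with the higher methylation also had more reads for its total, compared with 54.1% of the 50640 runs of the genome. The part of read number in these differences was not tested.

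**Figure D4:**
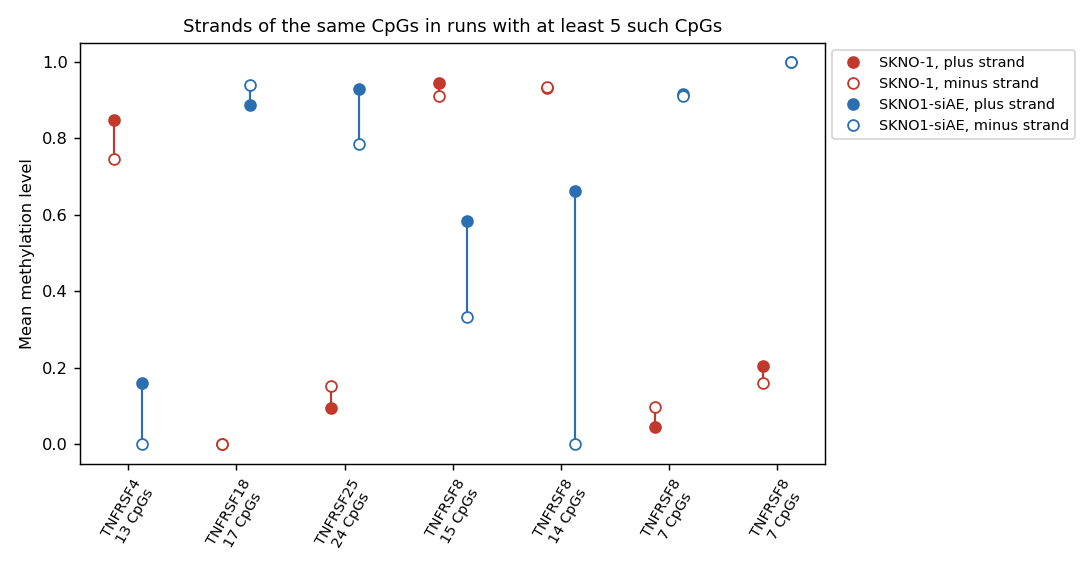
Mean methylation level (y axis) of the plus strand (filled) and the minus strand (open) of the same CpGs in SKNO-1 (red) and SKNO1-siAE (blue), for the 7 runs with at least 5 CpGs read on both strands in both libraries. The strands lie close together in most runs, and farthest apart in SKNO1-siAE at the TNFRSF8 run with 14 CpGs, at 0.662 and 0.

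The spread within a library can be set beside the difference between libraries by comparing the strands of the same CpG. Over 328 CpGs of the members the strands differed on average by 0.10 in SKNO-1 and by 0.140 in SKNO1-siAE, while the libraries differed by 0.30 on the plus and 0.306 on the minus strand. Over all 989218 such CpGs the strands differed by 0.101 and 0.0905 and the libraries by 0.167 and 0.166. In TNFRSF18 the library difference was 0.816 and 0.856 against a strand difference of 0.0180 and 0.147. In TNFRSF1B all 4 values lay between 0.0794 and 0.0808. Both strands differed by at least 0.2 in the same direction at 102 member CpGs and in opposite directions at 1 (31.1% and 0.305% of the member CpGs), compared with 14.8% and 1.7% of all such CpGs. Strands of a CpG share cells and library and are no replicates. The members were chosen on this contrast, so nothing is read from their values beside those of all such CpGs.

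The wider pathway was described over the 1500 bp upstream of each start, where 17062 coding genes had at least 5 sites and 3.84% were higher and 15% lower in SKNO-1 by at least 0.2. Of the 6 measured receptor genes of 1p36, 0 were higher and 4 lower, with a median difference of -0.259. TNFRSF4 lay just past the limit, so that 3 were lower with 10 or more reads, with merged strands and with the own sites of each library, and the merged strands put 1 member and the own sites 2 members past it as higher. Of 10 ligands and coreceptors, 7 were measured, 0 higher and 1 lower, with a median of -0.0653. The lower gene was TNFSF4, the ligand of OX40, at 0.0831 in SKNO-1 and 0.492 in SKNO1-siAE over 6 sites. TNFSF8, the ligand of CD30, was alike in both (0.858 and 0.843), as was TNFSF18, the ligand of GITR (0.988 and 0.986).

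Of 21 other receptors of the family, 20 were measured, 0 higher and 3 lower, with a median of -0.0254. TNFRSF10C, a decoy receptor for TRAIL, stood at 0.215 and 0.921, EDAR, the ectodysplasin receptor, at 0.259 and 0.636, and TNFRSF13B, the B-cell receptor TACI, at 0.646 and 0.897. Of 10 adaptors and kinases, 8 were measured, 0 higher and 1 lower, with a median of -0.0499. The lower gene was TRAF6, an adaptor with ubiquitin ligase activity, at 0.271 and 0.475. In the first 500 bp, 2 of 5 members were higher and 2 lower, compared with 0 higher and 5 lower among the 27 measured genes of these lists and 3.37% higher and 13.1% lower among all coding genes. The members past the limit include TNFRSF4, TNFRSF8 and TNFRSF18, on which the group was chosen, so nothing is read from this.

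**Figure D5:**
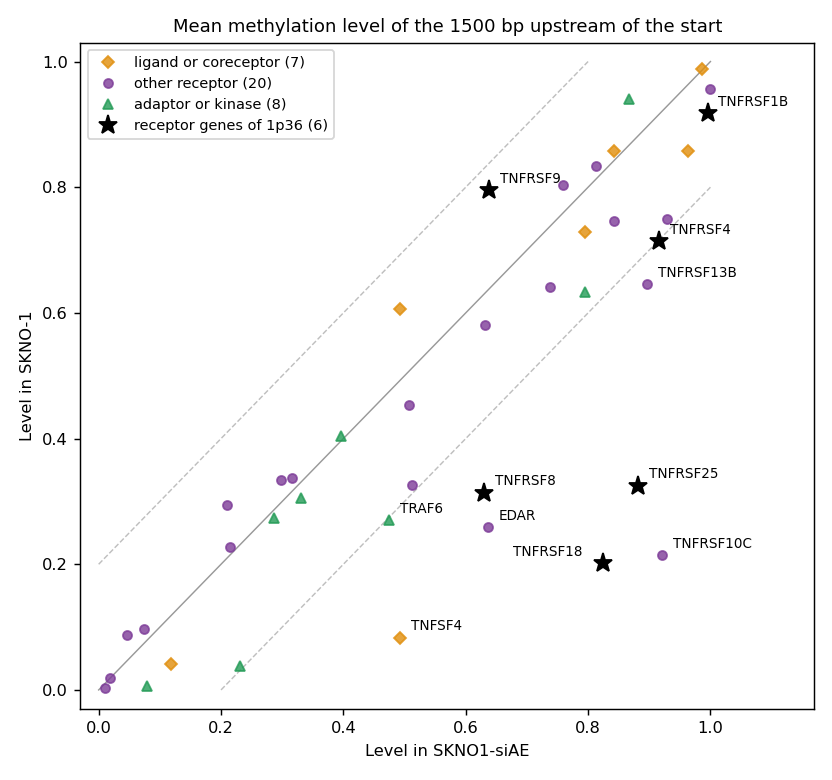
Mean methylation level of the 1500 bp upstream of the start in SKNO-1 (y axis) against SKNO1-siAE (x axis) for the 6 receptor genes of 1p36 (stars), 7 ligands or coreceptors (diamonds), 20 other receptors (circles) and 8 adaptors or kinases (triangles). The solid line marks equal levels and the dashed lines a difference of 0.2; the named points below the lower dashed line include TNFRSF18, TNFRSF25 and TNFRSF8, and no point lies above the upper one.

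Around the members, 13 other coding genes started within 50 kb of a locus and all were measured upstream of their starts, 0 higher and 4 lower, with a median difference of -0.125, compared with 3.84% higher and 15% lower and a median of -0.00810 among all coding genes. Next to TNFRSF25, HES2, of the HES family of transcriptional repressors, stood at 0.0383 in SKNO-1 and 0.784 in SKNO1-siAE and PLEKHG5, a guanine nucleotide exchange factor, at 0.0499 and 0.757. HES5, a target of Notch signaling near TNFRSF14, had 0.449 and 0.820, and C1QTNF12, a secreted protein gene near TNFRSF4, had 0.656 and 0.972. Between TNFRSF8 and TNFRSF1B, which lie 22783 bp apart, 101 sites differed by -0.0269, whereas their pooled reads differed by 0.0951 (95% interval 0.0656 to 0.124).

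Among 12101 coding genes with at least 20 upstream sites, those with levels nearest to TNFRSF18 in both libraries were CHRNB2 (0.194 and 0.820) and CPT1A (0.218 and 0.816). PRR15 (0.717 and 0.918) and ITGAE (0.717 and 0.911) lay nearest to TNFRSF4, and SH3BGRL2 (0.304 and 0.627) and CDH6 (0.320 and 0.619) nearest to TNFRSF8. The distance was Euclidean over the 2 libraries, and at 2 points per gene it describes only this pair of levels.

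The letters TGTGGT and TGCGGT, to which RUNX1 is known to bind, were counted on both strands, separately for each motif even where matches overlapped. In the 1500 bp upstream in hg19, TGTGGT was found 2 times at TNFRSF4 and 1 time each at TNFRSF18, TNFRSF14 and TNFRSF9, and in 56% of 19820 coding genes. TGCGGT was found 3 times at TNFRSF9 and 1 time each at TNFRSF14 and TNFRSF25, and in 27.8% of genes. TNFRSF8 and TNFRSF1B held neither. In the 300-base promoters of RefSeq (GRCh38.p14), which matched 6 members, TNFRSF9 held 1 match of each and the others none, against 13.1% and 7.29% of 35116 promoters. None of the printed stretches holds either motif.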

How the data were processed

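DNA of 1 SKNO-1 and 1 SKNO1-siAE culture was bisulfite-converted, captured with SeqCap Epi probes and sequenced in paired ends. Reads were trimmed and aligned to hg19 with BSMAP 2.73 (the submitters' processing notes also name cutadapt 1.4.2), and methylation calls came from unique sequences. The authors deposited raw counts of methylated and unmethylated reads per CpG cytosine and strand, at sites with at least 5 reads, so unread and thinly read sites are missing. The reads carry no molecular identifiers, and intervals cover counting error only, taking each read at each site as independent.

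Site levels, their means over shared sites, 95% Wilson intervals of pooled reads and runs were computed with Python 3.11.15, NumPy 2.4.6, pandas 2.3.3, numba 0.67.0 and pysam 0.24.0, and sequences were read from the GRCh37 assembly with samtools 1.23.1. The sequence of 1 run is not reported here. Each site was tested by Fisher's exact test with Benjamini-Hochberg adjustment (called at a difference of 0.2 or more with adjusted p under 0.05), which was tested on simulated data. A CpG island was a union of 200 bp windows with over 50% GC and an observed to expected ratio over 0.6. The members and gene lists were chosen with earlier results of these data known. Named genes were the 7 members, related genes and genes within 50 kb with an upstream difference of at least 0.2, and the 2 genes nearest in upstream levels to TNFRSF4, TNFRSF8 and TNFRSF18. The ligands TNFSF8 and TNFSF18 and the overlapping gene ESPN were named outside this rule, after their values were seen. Of the sites at the members, 337 reached 5 reads in SKNO-1 alone and 406 in SKNO1-siAE alone, and they entered an alternative only. Other alternatives were at least 10 reads, pooled reads, merged strands, no sites of high depth, other windows, and other limits for calls and runs.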

Additional observations from a re-analysis of the deposited data

How the results depend on the processing

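With 1 library per line, no value has a replicate check, and the upstream differences rest on 10 to 55 sites each (4 at TNFRSF4, TNFRSF18 and TNFRSF8 with at least 10 reads). Of 92 alternative values, 51 moved by less than the counting error of pooled reads taken as independent (a count by less than 1.5 times), 37 by more, and 4 that were beyond 0.2 changed sign. A further 10 values changed sign from a difference of at most 0.0780, at the loci of TNFRSF9, TNFRSF8 and TNFRSF1B and upstream of TNFRSF1B. Of differences beyond 0.2, the sign changed where the upstream window was extended. TNFRSF4 (-0.201) gave 0.465 with 500 bp downstream added and 0.646 within 500 bp of the start, and TNFRSF8 (-0.316) gave 0.458 and 0.502. In these windows TNFRSF18 gave -0.791 and -0.900, TNFRSF25 -0.670 and -0.778, and TNFRSF1B -0.0314 and 0.0115. With at least 10 reads, the locus difference was 0.444 for TNFRSF4, -0.705 for TNFRSF18, -0.0823 for TNFRSF25 and 0.00760 for TNFRSF8, and the upstream difference was -0.110 for TNFRSF4, -0.752 for TNFRSF18, -0.601 for TNFRSF25 and -0.457 for TNFRSF8. Pooled reads gave locus differences of 0.293 for TNFRSF4, -0.722 for TNFRSF18, -0.101 for TNFRSF25, 0.0660 for TNFRSF9 and 0.000420 for TNFRSF8, and -0.497 upstream of TNFRSF25. Merged strands gave locus differences of 0.230 for TNFRSF4, -0.617 for TNFRSF18 and -0.000817 for TNFRSF8, and -0.694 upstream of TNFRSF18. With the own sites of each library, loci differed by 0.307 for TNFRSF4, -0.609 for TNFRSF18, -0.190 for TNFRSF25 and 0.0903 for TNFRSF9, and upstream windows by -0.467 for TNFRSF25, 0.318 for TNFRSF9 and 0.319 for TNFRSF1B. Without the 1500 bp upstream, the loci of TNFRSF4 and TNFRSF25 differed by 0.495 and -0.111. Sites called higher and lower numbered 17 and 41 by Bonferroni adjustment. With at least 10 reads, which tests fewer sites, they numbered 74 and 86, and 8 lower runs were found, compared with 14. Shares of all shared sites were not computed for these settings. The cause of the other shifts was not tested. No paired analysis was possible because there was 1 library per cell line.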
